A study of Mus musculus with 4 samples.

Results

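The genes described here encode the vacuolar proton pump (V-ATPase), the Ragulator and Rag GTPase platform on the lysosome surface, the folliculin complex, and the kinase complex mTORC1 with its switches Rheb, Tsc1 and Tsc2. They were taken by name from the gene annotation, as protein-coding genes whose symbols start with Atp6v or Atp6ap or are Lamtor1 to Lamtor5, together with 15 further named genes. The rule matched 46 genes, and 44 of them were among the 26561 genes of the count table. Rragb and Atp6ap1l were not analysed here. Of the 44, 39 passed the filter on low counts and were tested. The 2 groups were wild-type MC38 mouse tumour cells, taken 60 h after a single X-ray fraction of 30 Gy (IR) or left unirradiated (nonIR). MC38 is a line from a mouse colon adenocarcinoma. No agent, transgene or deletion is named for either group, and no harvest time is given for the nonIR cells, so time in culture and cell density cannot be told apart from irradiation.

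The V-ATPase is a rotary pump that acidifies lysosomes and other compartments. Its cytosolic V1 sector splits ATP, and its membrane V0 sector carries the protons. Amino acids inside and outside the lysosome act through the pump, Ragulator and the Rag GTPases to bring mTORC1 to the lysosome, where Rheb can switch it on. Folliculin with an FNIP partner acts on RagC and RagD, and mTORC1 in turn phosphorylates the transcription factors TFEB and TFE3, which bind E-box letters in the promoters of lysosomal genes.

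The E-box core CACGTG is a letter pattern that TFEB and TFE3, among other factors, recognise. Of the 9 members whose promoters hold it, 7 are shown: 6 that were higher in IR and Rheb, which was lower. Each stretch runs 5′ to 3′ from 150 bases before the RefSeq start to 10 bases past it, on the GRCm38.p6 build, with the core in capitals.
Atp6v0d1, chr8:105566055-105566214, - strand: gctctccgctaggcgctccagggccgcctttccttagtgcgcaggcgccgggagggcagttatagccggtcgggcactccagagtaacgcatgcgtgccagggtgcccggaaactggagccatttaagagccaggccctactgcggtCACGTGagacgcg
Atp6v1a, chr16:44139250-44139409, - strand: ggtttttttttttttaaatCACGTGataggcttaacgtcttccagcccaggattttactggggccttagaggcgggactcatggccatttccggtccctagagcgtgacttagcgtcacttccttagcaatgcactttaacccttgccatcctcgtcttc
Atp6v0e, chr17:26676246-26676405, + strand: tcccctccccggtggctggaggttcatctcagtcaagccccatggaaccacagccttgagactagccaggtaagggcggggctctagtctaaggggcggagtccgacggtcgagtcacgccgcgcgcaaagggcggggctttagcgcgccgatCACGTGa
Atp6v0b, chr4:117887320-117887479, - strand: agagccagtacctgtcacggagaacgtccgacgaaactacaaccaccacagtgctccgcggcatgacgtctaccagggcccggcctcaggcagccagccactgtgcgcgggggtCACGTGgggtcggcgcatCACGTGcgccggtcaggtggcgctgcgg
Rragc, chr4:123917283-123917442, + strand: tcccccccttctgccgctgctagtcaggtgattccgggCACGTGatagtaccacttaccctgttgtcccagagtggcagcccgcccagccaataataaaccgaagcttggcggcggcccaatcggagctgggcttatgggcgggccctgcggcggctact
Fnip1, chr11:54438029-54438188, + strand: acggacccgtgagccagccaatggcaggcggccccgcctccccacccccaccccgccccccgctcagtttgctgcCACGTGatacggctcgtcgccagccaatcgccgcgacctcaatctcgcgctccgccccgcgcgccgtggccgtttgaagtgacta
Rheb, chr5:24842352-24842511, - strand: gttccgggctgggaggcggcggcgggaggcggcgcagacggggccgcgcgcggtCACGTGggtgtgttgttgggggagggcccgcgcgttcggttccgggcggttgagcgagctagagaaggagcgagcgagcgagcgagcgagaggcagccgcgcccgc
The core began 3 bases before the start of Atp6v0d1, 131 before that of Atp6v1a, 112 before that of Rragc, 75 before that of Fnip1 and 96 before that of Rheb, and 3 bases after that of Atp6v0e. Atp6v0b held 2 copies, which began 36 and 18 bases before the start.

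Promoter windows of 300 bases were matched by symbol for 32 of the 39 tested members. Of these 32, 9 held CACGTG (28.1%), against 11.4% of the 10587 tested genes with a window and 8.09% of all 27025 genes in the promoter table. The 2 not printed above were Lamtor1, which was higher in IR, and Lamtor4, which did not pass. The longer TCACGTGA was found in Atp6v0d1, Atp6v1a and Atp6v0e, or 9.38% of the 32, against 2.13% of tested genes. GTCACGTG, read on both strands, was found in Atp6v0b, Atp6v0d1 and Rheb, against 4.56% of tested genes, and the full palindromic CLEAR element was in none of the 32 windows and in 0.803% of tested genes. Every match of a longer pattern contains a CACGTG match. Of the 9 genes with the core, 7 were higher in IR and 1 was lower, while of all 32 with a window 19 were higher and 5 lower. These matches describe letters in a window and say nothing of binding.

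The libraries held 26059171 to 29881492 counts, with a biological coefficient of variation of 4.57% over all genes. Each group had 2 libraries. Separate cultures are not named, so the p-values rest on a spread between libraries that could be technical. Within a group, the libraries were further apart than sampling alone would put them (mean chi-square per gene 4.73 in IR and 3.38 in nonIR, against a value of 1 for pure sampling). Of the markers that define epithelium, Cdh1 had 2173 and 1798 counts in IR and 998 and 1009 in nonIR, whereas Epcam had 0 and 1 in IR and 0 in both nonIR libraries, and Krt18 had 2 and 3 in IR and 0 in both nonIR libraries. Krt8 had 30 and 20 counts in IR and 6 and 3 in nonIR. Krt19 had 46 and 31 counts in IR and 50 and 53 in nonIR and did not pass (log2 fold change -0.42, edgeR adjusted p = 0.375). Cldn4 had 7 and 0 counts in IR and 0 in both nonIR libraries, and Cldn7 had 2 and 3 in IR and 1 and 0 in nonIR. The 5 mesenchymal markers summed to 5041 and 5080 CPM (counts scaled to a common library size) in IR and 4565 and 4594 CPM in nonIR. Among them Fn1 (log2 fold change 2.97), Pdgfrb (0.76) and Col1a1 (0.76) were higher, Vim was lower (-0.26) and Cdh2 did not pass. For a line from a colon adenocarcinoma, Cdh1 was thus well detected, whereas the simple epithelial markers Epcam and Krt18 were nearly absent. The 7 leukocyte and macrophage markers summed to 39.3 and 33.3 CPM in IR and 5.02 and 4.11 CPM in nonIR, nearly all of it Cd68, which encodes a lysosomal membrane protein. Ptprc, carried by nearly all leukocytes, had 24 and 17 counts in IR and 10 and 6 in nonIR. The macrophage markers differed, with 23 and 20 counts of Lyz2 in IR and 0 and 2 in nonIR. Adgre1 had 0 and 2 counts in IR and 0 in both nonIR libraries. The 3 endothelial markers summed to 5.37 and 5.69 CPM in IR and 2.58 and 1.78 CPM in nonIR, and Pecam1 among them was higher (145 and 145 counts in IR, 63 and 47 in nonIR, edgeR adjusted p = 6.96e-07). Cd68, Pecam1 and Cdh1 thus moved in the same direction as most members, whereas Vim was lower and Krt19 did not pass, with a negative log2 fold change. Lyz2 and Krt8 also had more counts in IR. Both passed the filter on low counts through their IR libraries alone, so their direction was fixed by the filter. The part of these markers in the results was not tested. In bulk RNA, a change in the share of cells that carry a transcript and a change of transcript per cell cannot be told apart.

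Transcripts of most proton pump genes were higher in IR, by unequal amounts. Of 21 tested genes with V-ATPase names, 17 were higher in IR and none was lower, by edgeR's quasi-likelihood test at a Benjamini-Hochberg adjusted p under 0.05. Over all members, 26 of 39 (66.7%) were higher and 5 (12.8%) lower, where 30.4% of all 15298 tested genes were higher, 30.3% lower and 60.7% changed in either direction. Among tested genes with a mean of 20 CPM or more, 29.8% were higher and 45.2% lower, and of the 31 members at that level 23 were higher and 4 lower. The median log2 fold change was 0.50 over the V-ATPase genes and 0.29 over all tested members, beside 0.01 over all tested genes. Both IR libraries lay above both nonIR libraries for 27 of the 39, against 39.7% of all tested genes. With a further limit of at least 1.5-fold, 11 members were higher and 1 lower, beside 17.5% and 10.7% of all tested genes. Of the 26 called higher, Atp6v1c2 passed the filter on low counts through its IR libraries alone.

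**Figure D1:**
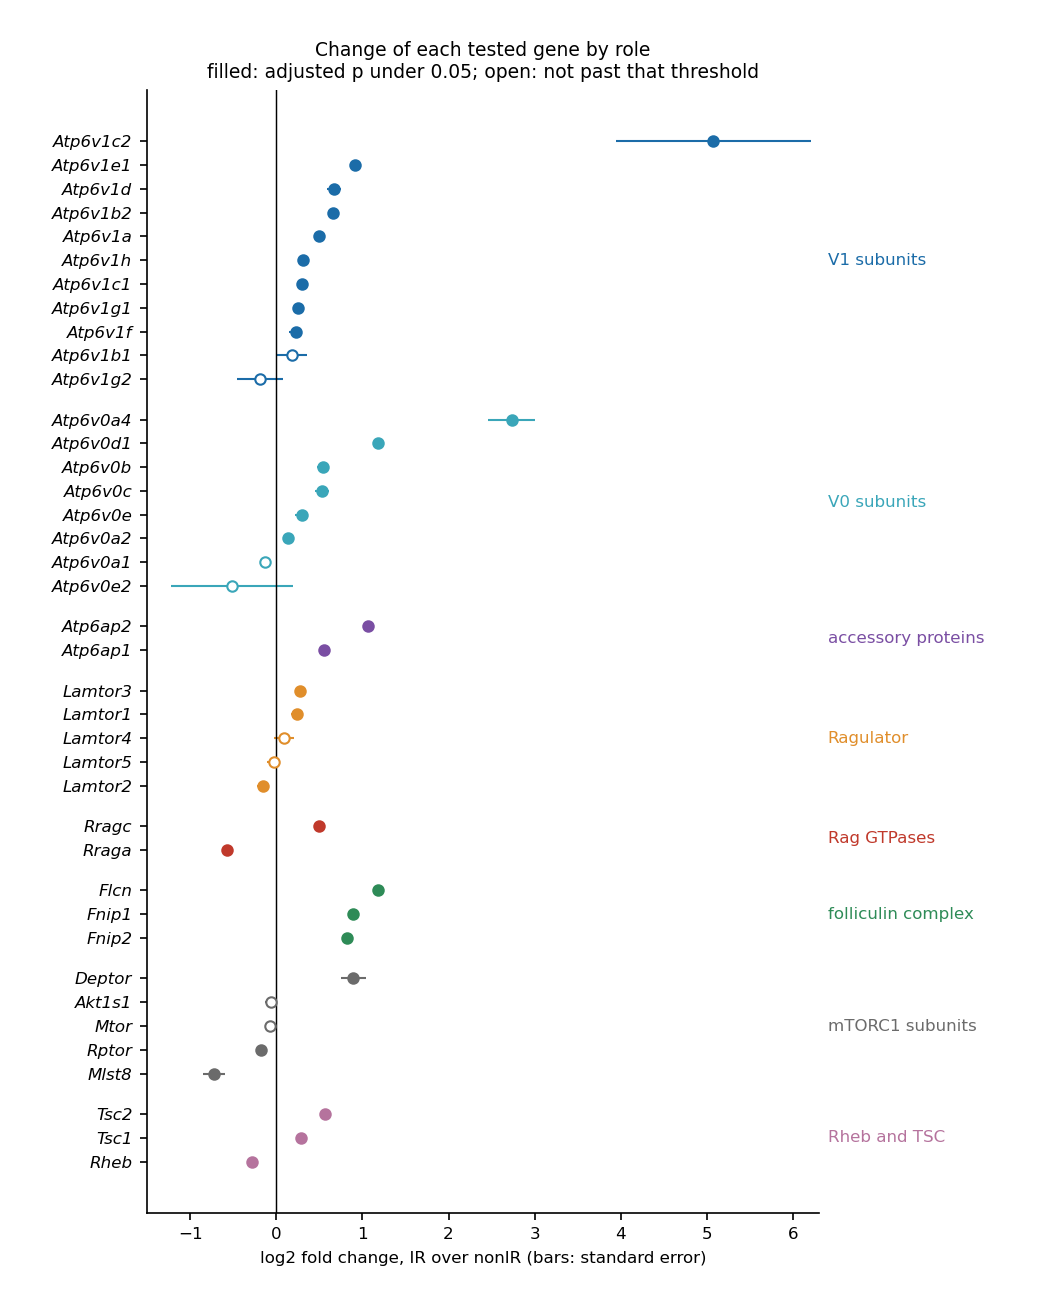
Log2 fold change of IR over nonIR with its standard error for each of the 39 tested genes, grouped by role; filled points are past an adjusted p of 0.05. The V1, V0 and accessory genes lie mostly right of 0, all 3 folliculin complex genes lie between 0.82 and 1.19, and the Rag GTPase, mTORC1 and Rheb and TSC genes lie on both sides.

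**Figure D2:**
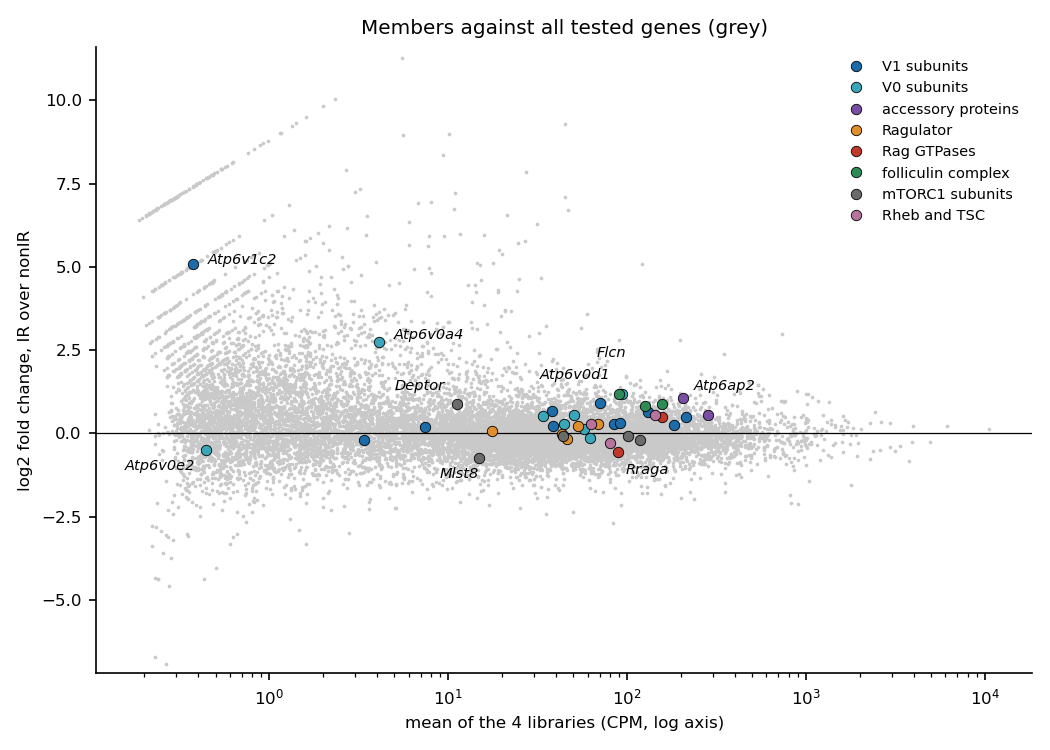
Log2 fold change of IR over nonIR against mean level (CPM, log axis) for all 15298 tested genes in grey and the members in colour by role. Members above 20 CPM lie within -0.57 and 1.19, and the steeper values of Atp6v0a4 and Atp6v1c2 belong to low-count genes.

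In the V1 sector, 9 of 11 tested subunit genes were higher and none was lower, beside 30.4% higher and 30.3% lower of all tested genes. The 9 include Atp6v1c2, which passed the filter on low counts through its IR libraries alone. Atp6v1e1 (ENSMUSG00000019210, chromosome 6, 120794305 to 120822793, minus strand, GRCm38), a subunit of the peripheral stalks that hold the catalytic head still, had 92.2 and 92.97 CPM in the IR libraries and 50.9 and 47.0 CPM in the nonIR libraries. The groups were far apart relative to their spread, with a log2 change of 0.92 (SE 0.06, edgeR adjusted p = 1.65e-55). Atp6v1d (ENSMUSG00000021114, chromosome 12, 78840725 to 78861638, minus strand), part of the central rotor, had 47.0 and 45.8 CPM in IR and 30.6 and 27.6 CPM in nonIR. Its log2 fold change was 0.67 (SE 0.08, adjusted p = 1.41e-16). The catalytic head is built of alternating A and B subunits. Atp6v1b2 (ENSMUSG00000006273, chromosome 8, 69088646 to 69113711, plus strand), which encodes the widely expressed B subunit, had 158 and 161 CPM in IR and 99.9 and 102 CPM in nonIR, a log2 change of 0.66 (SE 0.05, adjusted p = 1.56e-44). Atp6v1a (ENSMUSG00000052459, chromosome 16, 44085402 to 44139705, minus strand), the ATP-splitting A subunit, had 246 and 251 CPM in IR and 173 and 179.6 CPM in nonIR, a log2 change of 0.50 (SE 0.04, adjusted p = 2.35e-38). These 4 genes were chosen as the most changed of the sector at a mean of at least 1 CPM. For all 4, both IR libraries lay above both nonIR libraries, as for 39.7% of all tested genes.

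The other V1 subunits moved less. Atp6v1h, the regulatory H subunit, had a log2 change of 0.31 (adjusted p = 1.17e-08), and Atp6v1c1, which encodes the C subunit at the joint of the sectors, had 0.29 (adjusted p = 1.53e-07). The stalk subunit Atp6v1g1 rose by 0.25 on the log2 scale (adjusted p = 6.38e-10). The rotor subunit Atp6v1f rose by 0.23 (adjusted p = 0.00749), a call that was lost without IR replicate 1 (adjusted p = 0.0676) and without nonIR replicate 2 (adjusted p = 0.126). Within a library, the ratio of Atp6v0d1 to Atp6v1f counts was 3.06 and 3.13 in IR and 1.55 and 1.65 in nonIR, so the subunit genes did not keep the same proportions. The ratio of Atp6v1a to Atp6v1b2 counts was 1.56 and 1.56 in IR and 1.73 and 1.75 in nonIR.

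The remaining V1 genes were paralogues with narrow known tissue ranges, and they were scarce. Atp6v1c2 (ENSMUSG00000020566, chromosome 12, 17284721 to 17329359, minus strand) was read 28 and 14 times in IR and 0 and 1 in nonIR. The ratio was 42.3, and counting error alone gives it an exact 95% interval from 7.18 to 1709 (edgeR adjusted p = 2.06e-05). The fitted log2 fold change of 5.07 rests on the prior count and ran from 4.25 without nonIR replicate 1 to 7.37 without nonIR replicate 2. Its exons overlap those of Pdia6 on the other strand, a gene with 40852 counts in all. Atp6v1b1, the B subunit of acid-secreting kidney cells, had 7.56 and 8.14 CPM in IR and 6.84 and 6.99 CPM in nonIR and did not pass (log2 fold change 0.18, SE 0.18, adjusted p = 0.395). Atp6v1g2, best known from brain, had 2.86 and 3.50 CPM in IR and 2.91 and 4.32 CPM in nonIR (log2 fold change -0.19, adjusted p = 0.559). It overlaps Nfkbil1 on the other strand, which had 1910 counts against its own 384. Atp6v1e2, Atp6v1g3 and Atp6v1fnb, which is named as the neighbour of Atp6v1f and not as a subunit, each had 1 and 0 counts in IR and 0 in both nonIR libraries. They lay below the filter and were not tested.

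In the V0 sector, 6 of 8 tested genes were higher and none was lower, beside 30.4% higher and 30.3% lower of all tested genes. Atp6v0d1 (ENSMUSG00000013160, chromosome 8, 105524465 to 105566047, minus strand), whose promoter is shown above, encodes the subunit that couples the rotor of V1 to the proteolipid ring. It had 129 and 129 CPM in IR and 57.02 and 56.9 CPM in nonIR. That is a log2 change of 1.18 (SE 0.05, adjusted p = 4.99e-105), the largest among V-ATPase genes over 20 CPM, and 88.0% of all tested genes had a smaller or equal log2 fold change. The ring itself is built from the products of Atp6v0c and Atp6v0b. Atp6v0b (ENSMUSG00000033379, chromosome 4, 117884326 to 117887333, minus strand) had 59.1 and 60.8 CPM in IR and 39.9 and 42.3 CPM in nonIR, a log2 change of 0.54 (SE 0.07, adjusted p = 5.00e-15). Atp6v0c (ENSMUSG00000024121, chromosome 17, 24163866 to 24169702, minus strand) had 38.5 and 41.2 CPM in IR and 28.1 and 27.1 CPM in nonIR, a log2 change of 0.53 (SE 0.08, adjusted p = 1.35e-09). A processed pseudogene, Atp6v0c-ps2, had 36 and 21 counts in IR and 8 and 15 in nonIR, and how reads were divided between it and Atp6v0c is uncertain. The small subunit gene Atp6v0e rose by 0.29 on the log2 scale (adjusted p = 1.18e-04). Its paralogue Atp6v0e2 had 16 and 5 counts in IR and 8 and 22 in nonIR, with overlapping groups (adjusted p = 0.556). Atp6v0d2, the d subunit known from osteoclasts, had 4 and 0 counts in IR and 0 in both nonIR libraries and was not tested.

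The large a subunit, which forms the proton path and directs the pump to a compartment, has 4 genes, and they did not move alike. Atp6v0a4 (ENSMUSG00000038600, chromosome 6, 38048483 to 38124586, minus strand), the form of kidney intercalated cells, had 245 and 162 counts in IR and 33 and 28 in nonIR, or 8.23 and 6.10 CPM in IR and 1.201 and 0.959 CPM in nonIR. Both IR libraries stood well above both nonIR libraries (log2 fold change 2.73, SE 0.27, adjusted p = 1.20e-22). Its exons overlap D630045J12Rik on the same strand over 5.21% of their length, and that gene had 8791 counts in all and a log2 change of 0.23. Foxi1, the transcription factor that defines intercalated cells, had 0 and 1 counts in IR and 0 in both nonIR libraries. The 4 osteoclast and intercalated cell markers summed to 0.941 and 1.24 CPM in IR and 0.291 and 0.0685 CPM in nonIR. Most of that was Ctsk, with 23 and 20 counts in IR and 8 and 2 in nonIR. Acp5 had 5 and 6 counts in IR, Slc4a1 had 0 and 6, and each had 0 in both nonIR libraries. Tcirg1, which encodes the a3 subunit but is not matched by the naming rule, had 89.7 and 83.4 CPM in IR and 42.2 and 42.6 CPM in nonIR (log2 fold change 1.03, SE 0.06, adjusted p = 4.51e-63). Atp6v0a2 had 59.1 and 60.5 CPM in IR and 52.8 and 55.7 CPM in nonIR, a log2 change of 0.14 (SE 0.06) that only just passed (adjusted p = 0.046). That call was lost without any 1 of the 4 libraries, with adjusted p from 0.0506 to 0.348. Atp6v0a1 had 59.3 and 59.0 CPM in IR and 68.9 and 60.4 CPM in nonIR and did not pass (log2 fold change -0.13, SE 0.06, adjusted p = 0.0577). It passed as lower without nonIR replicate 2 (-0.23, adjusted p = 0.00337) and with no filter on low counts (-0.15, adjusted p = 0.0393), and without nonIR replicate 1 the log2 value was -0.05.

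Set per kilobase of merged exon, Tcirg1 held 49.999 and 48.5% of the summed a-subunit CPM in IR and 33.0 and 34.3% in nonIR. Atp6v0a1 held 23.2 and 24.1% in IR and 37.8 and 34.2% in nonIR, and Atp6v0a2 held 22.5 and 24.1% in IR and 28.3 and 30.8% in nonIR. Atp6v0a4 held 4.25 and 3.29% in IR and 0.870 and 0.716% in nonIR. The a3 gene was therefore the most abundant of the family in both IR libraries, whereas in nonIR Atp6v0a1 had a larger share than Tcirg1 in replicate 1 and nearly the same share in replicate 2. In the other families 1 gene held nearly everything. Atp6v1b2 made up 94.4 ± 0.197% of B-subunit CPM per kilobase in IR and 92.4 ± 0.0122% in nonIR (SD, n = 2 each), and Atp6v1g1 made up 99.3 ± 0.122% of G-subunit CPM per kilobase in IR and 99.0 ± 0.300% in nonIR. By level per kilobase, Atp6v1g1 was the highest V1 gene, at 175 CPM per kilobase in IR and 146 in nonIR, and Atp6v0d1 the highest V0 gene, at 71.9 in IR and 31.8 in nonIR. Merged exons include exons these cells may not use, so levels per kilobase are approximate.

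**Figure D3:**
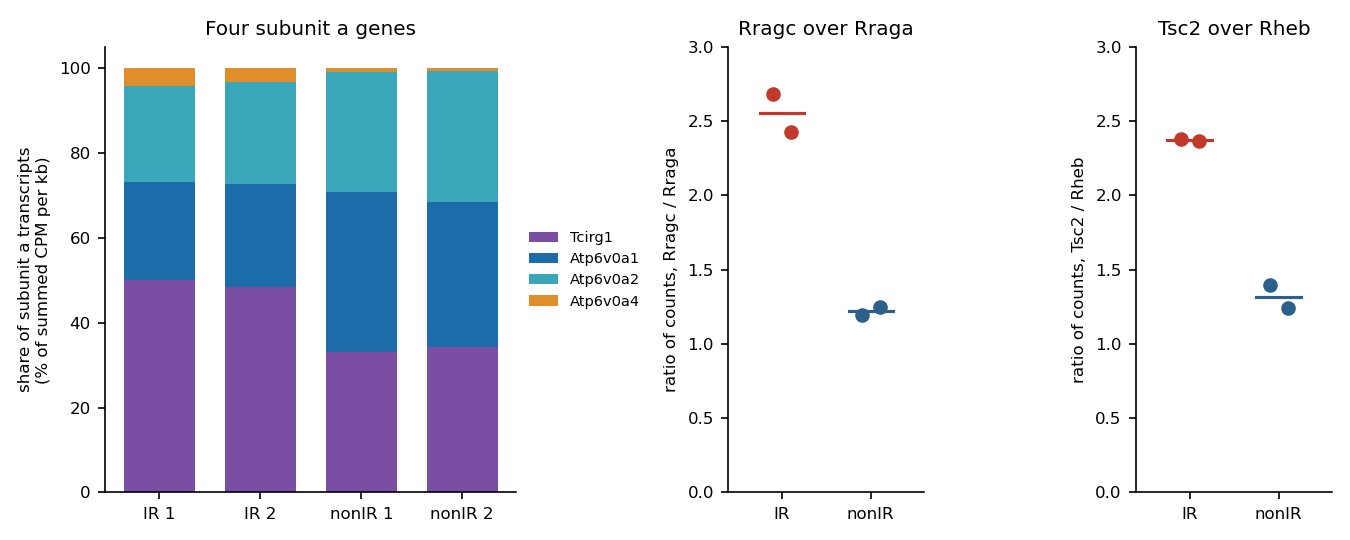
Left, share of each of 4 subunit a genes in their summed CPM per kilobase in each library; middle and right, ratio of Rragc to Rraga counts and of Tsc2 to Rheb counts in each library (points) with the group mean (line). Tcirg1 takes 48.5 to 49.999% in IR and 33.0 to 34.3% in nonIR, and both ratios are higher in both IR libraries than in either nonIR library.

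Transcripts of both accessory proteins of the pump rose. Per kilobase of exon they stood at 106 (Atp6ap2) and 111 (Atp6ap1) CPM in IR and at 50.5 (Atp6ap2) and 75.2 (Atp6ap1) CPM in nonIR. Atp6ap2 (ENSMUSG00000031007, chromosome X, 12587801 to 12617049, plus strand), also known as the prorenin receptor, had 273 and 281 CPM in IR and 130.1 and 135 CPM in nonIR. Its log2 fold change was 1.07 (SE 0.04, adjusted p = 2.94e-164). Atp6ap1 (ENSMUSG00000019087, chromosome X, 74297097 to 74304721, plus strand), which helps V0 to assemble, had 345 and 325 CPM in IR and 225 and 229.5 CPM in nonIR, a log2 change of 0.56 (SE 0.03, adjusted p = 5.87e-57). Added up, the V1 genes had 999 and 988 CPM in IR and 730.0 and 721 CPM in nonIR. The V0 genes had 402 and 406 CPM in IR and 289 and 282 CPM in nonIR. The ratio of the IR to the nonIR mean was 1.37 for the V1 sum, 1.41 for the V0 sum and 1.70 for the accessory sum, and these sums carry no test of their own.

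Transcripts of all 3 folliculin complex genes rose. Flcn (ENSMUSG00000032633, chromosome 11, 59791408 to 59810016, minus strand), which encodes folliculin, the GTPase-activating protein for RagC and RagD, had 119.8 and 130.1 CPM in IR and 56.7 and 53.1 CPM in nonIR. The log2 fold change was 1.19 (SE 0.05, adjusted p = 3.63e-104). Its partner Fnip1 (ENSMUSG00000035992, chromosome 11, 54438199 to 54518235, plus strand) had 199 and 205 CPM in IR and 108 and 109.9 CPM in nonIR, a log2 change of 0.89 (SE 0.04, adjusted p = 2.27e-93). The alternative partner Fnip2 (ENSMUSG00000061175, chromosome 3, 79455974 to 79567796, minus strand) had 160.0 and 159 CPM in IR and 89.2 and 91.5 CPM in nonIR, a log2 change of 0.82 (SE 0.05, adjusted p = 1.51e-66). None of the 3 had overlapping groups, and all 3 were past 1.5-fold. Of all tested genes, 39.7% had both IR libraries above both nonIR libraries, and 17.5% were higher by at least 1.5-fold.

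The Rag GTPases, which work as a RagA or RagB chain paired with a RagC or RagD chain, went opposite ways. Rragc (ENSMUSG00000028646, chromosome 4, 123917446 to 123936997, plus strand) had 180.1 and 187 CPM in IR and 129 and 131 CPM in nonIR, a log2 change of 0.50 (SE 0.04, adjusted p = 1.29e-30). Rraga (ENSMUSG00000070934, chromosome 4, 86575668 to 86577285, plus strand) had 67.1 and 76.9 CPM in IR and 108 and 105 CPM in nonIR, a log2 change of -0.57 (SE 0.05, adjusted p = 1.97e-25). Within a library, the ratio of Rragc to Rraga counts was 2.69 and 2.43 in IR and 1.19 and 1.25 in nonIR, with no overlap. Rragd, a gene known to respond to TFEB, had 0 counts in both IR libraries and 2 and 1 in nonIR and was not tested. A count of 0 in both IR libraries allows up to 0.0533 CPM when 3 counts over the group are taken as the limit.

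Of the 5 genes of Ragulator, the scaffold that anchors the Rags on the lysosome, 2 were higher (40%), 1 was lower (20%) and 2 did not pass. Of all tested genes 30.4% were higher and 30.3% lower, and with only 5 genes the counts are near those shares. Lamtor3 had 73.1 and 77.2 CPM in IR and 62.4 and 61.9 CPM in nonIR (log2 fold change 0.27, SE 0.06, adjusted p = 6.63e-06). Lamtor1, the lipid-anchored subunit that wraps the others, had 55.4 and 59.0 CPM in IR and 48.5 and 48.4 CPM in nonIR (0.24, SE 0.07, adjusted p = 6.84e-04, and 0.0535 without IR replicate 2). These are rises of 1.21-fold for Lamtor3 and 1.18-fold for Lamtor1. Lamtor2, the partner of Lamtor3 in a roadblock-domain pair, had 45.7 and 41.1 CPM in IR and 47.5 and 49.2 CPM in nonIR. Its log2 fold change of -0.16 (SE 0.07) passed at adjusted p = 0.0475. It did not pass without IR replicate 2 (adjusted p = 0.423), without nonIR replicate 2 (adjusted p = 0.174) or with DESeq2 size factors (adjusted p = 0.0577), and without IR replicate 1 the log2 fold change was -0.24. Lamtor4 and Lamtor5 did not pass, with log2 fold changes of 0.09 (SE 0.12, adjusted p = 0.522) and -0.03 (SE 0.07, adjusted p = 0.756).

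**Figure D4:**
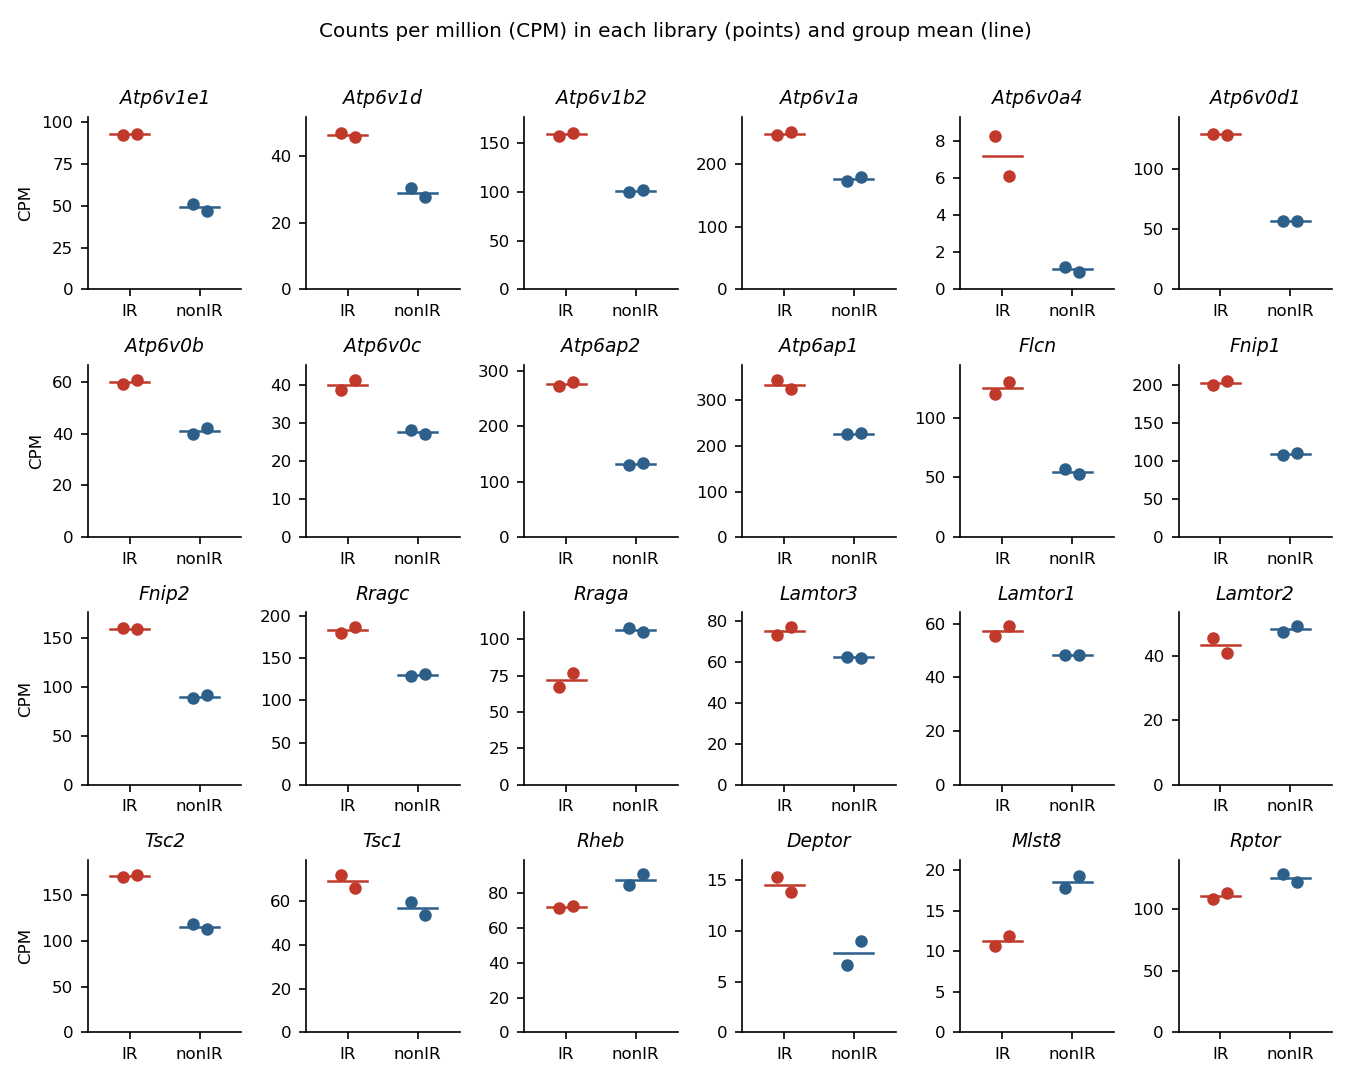
CPM in each library (points) and group mean (line) for 24 genes, IR at the left and nonIR at the right of each panel, with each axis starting at 0. Rraga, Lamtor2, Rheb, Mlst8 and Rptor are the 5 panels in which IR is lower. No panel has overlapping groups, but the 24 genes are a selection. The tested members with overlapping groups (Lamtor4, Lamtor5, Akt1s1, Atp6v1g2 and Atp6v0e2) are not shown. Of all 39 tested members, both IR libraries lay above both nonIR libraries for 27 and below them for 7. Of all 15298 tested genes, 6076 lay above and 5913 below in the same way.

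Of the 5 mTORC1 subunit genes, 1 was higher (20%), 2 were lower (40%) and 2 did not pass. Of all tested genes 30.4% were higher and 30.3% lower (29.8% and 45.2% at 20 CPM or more). With only 5 genes, the counts are near those shares. The kinase gene Mtor had 94.9 and 103 CPM in IR and 103 and 104 CPM in nonIR and did not pass (log2 fold change -0.07, SE 0.05, adjusted p = 0.24). Mlst8 (ENSMUSG00000024142, chromosome 17, 24473551 to 24479078, minus strand), a subunit that mTORC1 shares with mTORC2, had 10.6 and 11.9 CPM in IR and 17.8 and 19.3 CPM in nonIR. It was 1.65-fold lower (log2 fold change -0.72, SE 0.13, adjusted p = 4.84e-08) and is the 1 member that fell by over 1.5-fold. Rptor, the substrate-binding scaffold of mTORC1, had 108 and 113 CPM in IR and 129 and 122 CPM in nonIR, a log2 change of -0.18 (SE 0.05, adjusted p = 3.26e-04) that was -0.11 with upper-quartile factors. Deptor (ENSMUSG00000022419, chromosome 15, 55112317 to 55259271, plus strand), an inhibitor of mTOR, rose, with 15.3 and 13.8 CPM in IR and 6.62 and 9.01 CPM in nonIR (log2 fold change 0.90, SE 0.15, adjusted p = 3.82e-09). Akt1s1, the inhibitory subunit PRAS40, had 44.7 and 40.4 CPM in IR and 46.2 and 42.7 CPM in nonIR and did not pass (adjusted p = 0.478). It overlaps Tbc1d17 on the other strand, a gene with 2185 counts against its own 4919.

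Of Rheb, which switches mTORC1 on, and the TSC genes, Rheb was lower and Tsc1 and Tsc2 were higher, while the Rheb paralogue Rhebl1 was higher (log2 fold change 0.68, adjusted p = 5.33e-05) and the TSC subunit Tbc1d7 was lower (-0.78). Rheb (ENSMUSG00000028945, chromosome 5, 24802823 to 24842624, minus strand) had 71.7 and 72.6 CPM in IR and 84.8 and 91.0 CPM in nonIR, a log2 change of -0.29 (SE 0.05, adjusted p = 5.96e-07). Tsc2 (ENSMUSG00000002496, chromosome 17, 24595816 to 24632630, minus strand), which turns Rheb off, had 171 and 172 CPM in IR and 118 and 113 CPM in nonIR, a log2 change of 0.57 (SE 0.04, adjusted p = 1.25e-36). Its stabilising partner Tsc1 (ENSMUSG00000026812, chromosome 2, 28641228 to 28691167, plus strand) had 72.1 and 66.2 CPM in IR and 59.8 and 53.7 CPM in nonIR (0.29, SE 0.06, adjusted p = 5.66e-06). The ratio of Tsc2 to Rheb counts was 2.38 and 2.37 in IR and 1.40 and 1.24 in nonIR. The exons of Tsc2 overlap Pkd1 on the other strand over 7.204% of their length. Pkd1 had 22902 counts in all and moved the other way (log2 fold change -0.21).

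Other genes of the pathway were counted by list, and each count stands beside the 30.4% of all tested genes that were higher and the 30.3% that were lower (29.8% and 45.2% at 20 CPM or more). Of 13 tested genes of V-ATPase assembly and regulation and its lysosomal membrane partners, 6 were higher and none was lower. Beside Tcirg1, Wdr7, a subunit of the assembly factor rabconnectin, had the largest change (log2 fold change 0.76, SE 0.08, edgeR adjusted p = 4.48e-22). Clcn7, Mcoln1, Ncoa7 and Oxr1 were the other higher genes. The rabconnectin genes Dmxl1 (-0.09) and Dmxl2 (0.10) did not pass. Nor did Rogdi (0.19), Vma21 (0.09), Tmem199 (0.10), Ccdc115 (-0.23) and Ostm1 (0.14), so the assembly genes did not rise as a whole. None of the 3 tested MiT transcription factors was called higher. Tfeb had 5.98 and 7.76 CPM in IR and 9.97 and 9.21 CPM in nonIR and fell by 0.48 on the log2 scale (SE 0.17, adjusted p = 0.00854). Tfe3, the most abundant of the 3 per kilobase of exon, had 111 and 112 CPM in IR and 114 and 110.0 CPM in nonIR (adjusted p = 0.937). Mitf had 8.30 and 8.55 CPM in IR and 9.13 and 9.08 CPM in nonIR (adjusted p = 0.575). Transcript levels say nothing of where these factors were in the cell.

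Of 18 tested genes of GATOR, KICSTOR and the amino acid sensors, 7 were higher (38.9%) and 8 lower (44.4%), which is near the shares over all genes. Sesn3, a sestrin that restrains mTORC1, had 68.0 and 71.9 CPM in IR and 36.6 and 35.9 CPM in nonIR (log2 fold change 0.95, SE 0.07, adjusted p = 1.72e-44). The other sestrin genes went both ways. Sesn1 was higher (0.63, edgeR adjusted p = 3.14e-12) and Sesn2 was lower (-0.89, edgeR adjusted p = 2.07e-11). Kptn, a KICSTOR subunit, had 4.60 and 5.27 CPM in IR and 9.02 and 9.73 CPM in nonIR (-0.93, SE 0.19, adjusted p = 1.79e-06). In the list named for genes upstream of TSC, 2 of 11 tested genes were higher (18.2%) and 5 lower (45.5%). That share of lower genes is near the share at 20 CPM or more. The list also counts Rhebl1 (higher), a Rheb paralogue, and Tbc1d7 (lower), a TSC subunit, neither of which acts upstream of TSC. The most changed gene of the list was Prkaa2, a catalytic subunit of the energy sensor AMPK, with -1.18 (SE 0.14, edgeR adjusted p = 3.31e-17). Tbc1d7 came next, with -0.78 (SE 0.13, edgeR adjusted p = 1.44e-08). Of 4 tested mTORC2 genes, 2 were lower and none was higher: Prr5 (-0.52, adjusted p = 0.00868) and Mapkap1 (-0.32, adjusted p = 2.82e-07).

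Of the 10 tested genes listed as substrates of mTORC1, 5 were higher and 5 lower. Among the 5 lower is Rps6 (log2 fold change -0.20), whose protein is phosphorylated by S6 kinase and not by mTORC1 itself. Lpin1, a phosphatidate phosphatase that controls lipid genes, had 81.7 and 78.9 CPM in IR and 36.3 and 31.0 CPM in nonIR (log2 fold change 1.26, SE 0.07, adjusted p = 4.81e-81). Ulk1, the kinase that starts autophagy, had 64.8 and 65.4 CPM in IR and 42.7 and 37.5 CPM in nonIR (0.70, SE 0.07, adjusted p = 6.61e-25). Eif4ebp1, a repressor of cap-dependent translation, had 89.3 and 80.7 CPM in IR and 159 and 149.9 CPM in nonIR (-0.86, SE 0.05, adjusted p = 7.36e-70), and Rps6kb1, which encodes S6 kinase 1, had 70.6 and 65.8 CPM in IR and 85.8 and 81.4 CPM in nonIR (-0.29, SE 0.06, adjusted p = 5.31e-07). Eif4ebp2, the paralogue of Eif4ebp1, had 83.6 and 84.7 CPM in IR and 60.1 and 58.8 CPM in nonIR and rose (0.50, SE 0.06, adjusted p = 7.77e-18). These are transcript levels and give no measure of mTORC1 activity.

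**Figure D5:**
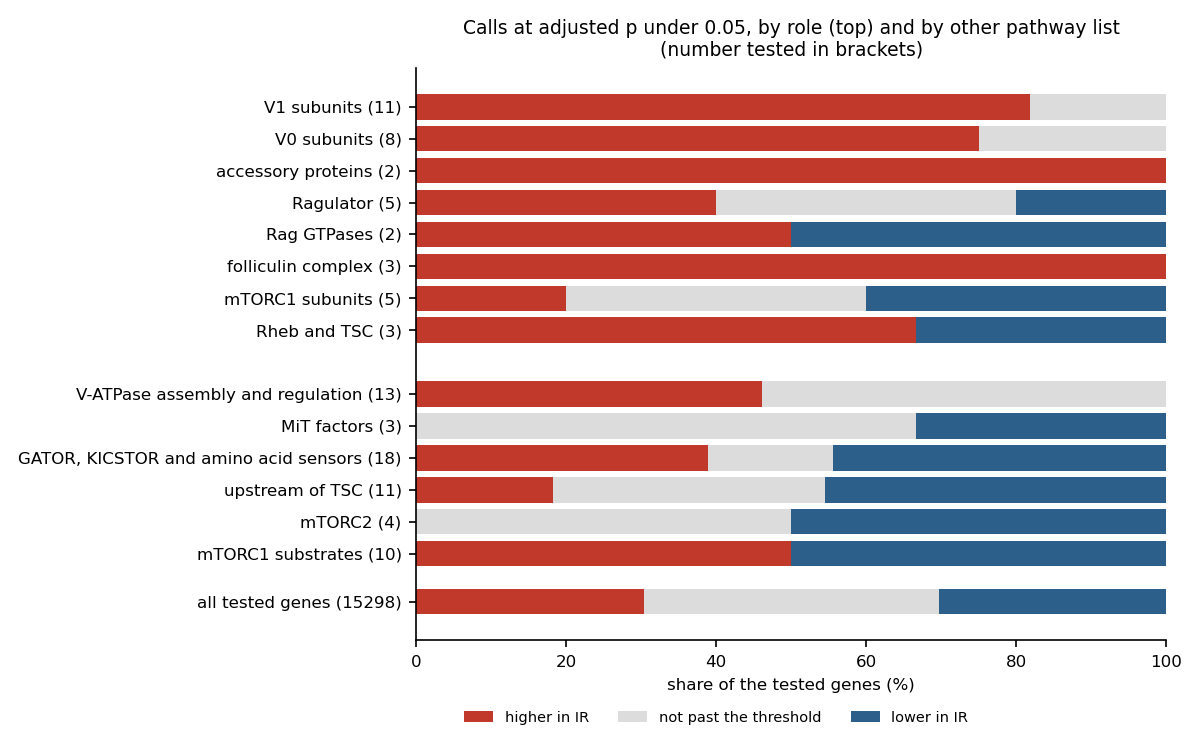
Share of tested genes that were higher in IR, not past the threshold or lower in IR at an adjusted p under 0.05, for each role among the members, for each other pathway list and for all 15298 tested genes, with the number tested in brackets. The pump and folliculin genes have no lower call, and the substrates, sensors and Rag GTPases have calls in both directions.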

How the data were processed

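The authors deposited raw gene counts as whole numbers, with a column for each library and no scaling or pooling. HTSeq, HISAT, HISAT2, DESeq2 and the build mm10 appear in the submitters' processing notes. Versions, strand setting, annotation release and the handling of reads with several matches were not given in the sources used. Groups and replicate numbers follow the sample titles; the description of nonIR replicate 2 carries the number of replicate 1. Symbols, coordinates (1-based) and merged exons come from GENCODE M21, on GRCm38, and promoters from RefSeq (GRCm38.p6). Of the tested members, 14 have exons that overlap another annotated gene, and in 5 cases that gene's total is above 10% of the member's.

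In R 4.3.3, edgeR 4.0.16 was used for the test (filterByExpr by group, TMM factors, glmQLFit with robust fitting, glmQLFTest, irradiation as the only term), with Benjamini-Hochberg adjustment over all 15298 genes that passed the filter. Standard errors are the absolute log2 fold change over the square root of F. For 13772 genes the spread came wholly from the trend fitted over all genes. CPM use TMM-scaled library sizes. Per-library values are given for the 4 most changed members of each role at a mean of at least 1 CPM. They are also given for members past the threshold against most of their group and for members under the filter. Further members, Rhebl1, Eif4ebp2, Sesn1 and Sesn2 were given after their values were seen, and the 1.5-fold and 20 CPM limits were set then too. Of each other list the 2 most changed genes with a mean of at least 5 CPM are named, plus 7 fixed genes. Members and lists were chosen with earlier results of these data known. The test was checked on simulated counts. Alternatives were other scalings, no filter, DESeq2 1.42.0, limma-voom (limma 3.58.1), a replicate block and leaving out each library. Counting intervals (exact, 95%) and floors cover counting error only.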

Additional observations from a re-analysis of the deposited data

How the results depend on the processing

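Under the 11 alternatives, 24 to 26 members were higher and 4 to 6 lower, V-ATPase genes higher numbered 15 to 17, and 8050 to 9292 of all genes changed. Each of these counts stayed within 1.5 times the reported one. The members' median log2 fold change of 0.29 was 0.37 with upper-quartile factors, 0.35 with total counts alone and 0.27 without the filter, and leaving out 1 library gave 0.26 to 0.32. Upper-quartile factors moved the median of all tested genes to 0.08, total counts alone to 0.07, and the lack of a filter, which admits low-count genes, to 0.22. Of the 39 tested members, 29 kept direction and side of the threshold under all 11 alternatives. Sign changes were found for 5 members that had not passed: Lamtor5 (0.043 with upper-quartile factors, 0.0302 with total counts and -0.17 to 0.10 when 1 library was left out), Akt1s1 (0.0092 with upper-quartile factors and -0.14 to 0.00069 when 1 library was left out), Mtor (0.0027 with upper-quartile factors), Atp6v1g2 (-0.46 to 0.11 when 1 library was left out) and Atp6v0e2 (-1.46 to 0.32 when 1 library was left out). Atp6v0a2 lost its call under 8 alternatives and Lamtor2 under 7, and the cause was not tested. Replicate numbers did not pair the samples (correlation of deviations -0.0045), and with the replicate block 25 members were higher, 4 lower, 16 V-ATPase genes higher, and 9026 genes changed, with a member median of 0.29.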
